A study of Homo sapiens with 12 samples.

Results

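The genes described here are 36 mesenchymal and extracellular matrix genes, measured in 2 prostate cancer cell lines with and without a glucocorticoid. They were the members with a named row on the array out of a list of 40 gene symbols, 1 row per symbol, among 17687 genes in all. COL3A1, LAMA3, TIMP2 and LOXL2 were not analysed here. The list holds the transcription factors, cytoskeletal and adhesion proteins by which mesenchymal cells are recognised, and the collagens, laminins, glycoproteins, proteoglycans and enzymes that build and cut the matrix around cells. The genes are grouped by function, and the list was drawn up with earlier results of these data known, so its counts are descriptions.

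The lines are LNCaPabl-Abi and LNCaPabl-Enza, names that point to LNCaP, a widely used prostate cancer cell line. Both are labelled epithelial. The meaning of Abi and Enza is not given in the labels, nor is whether either line is a single clone. Cells of each line received 100 nM dexamethasone or its vehicle DMSO for 24 h, and 3 arrays were made for each of the 4 groups Enza_Dex, Enza_Ctrl, Abi_Dex and Abi_Ctrl. Levels are the deposited log2 values, so a difference of 1 is a doubling on that scale, and array values are listed as replicates 1, 2 and 3. Each row has its own probes, so a difference in level between 2 genes was not read as a difference in RNA amount. Across genes, levels serve only to part dim from bright genes, beside background probes and in marker lists.

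Epithelial cells hold together through E-cadherin and rest on a basement membrane of laminins and type IV collagen. In the epithelial-mesenchymal transition, factors of the ZEB, SNAI and TWIST families repress E-cadherin, and N-cadherin (CDH2), vimentin (VIM) and fibronectin (FN1) are made instead. Matrix proteins are secreted as precursors that proteases of the BMP1 and tolloid family trim, hydroxylases and lysyl oxidases modify and cross-link collagen, and matrix metalloproteinases cut it, held back by the TIMP inhibitors. In prostate cancer these genes are read as signs of invasion and of a shift away from the luminal epithelial state.

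One array stood apart. Enza_Ctrl replicate 2 had a median correlation of 0.8555 with the others, against 0.986 to 0.990 for the remaining 11, and its background probes averaged 5.50 against 4.50 to 4.60. Its values had a narrower spread (SD over all genes, 1 row per symbol, of 2.76, against 3.40 to 3.45). Of the 23 members with a mean under 6 over the other arrays, 18 were highest on this array, with a median shift of 1.08 over Enza_Ctrl replicates 1 and 3. Of the 13 members at 6 or more, 11 were lowest on it, with a median shift of -1.92. Among all genes under 6, 65.3% were highest on this array, with a median shift of 0.93. Among all genes at 6 or more, 66.8% were lowest on it, with a median shift of -0.99. Each result is therefore given with all 12 arrays and with the 11 arrays that leave this one out, where Enza_Ctrl has n = 2. The plot of the shift by level shows both groups of members.

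**Figure D1:**
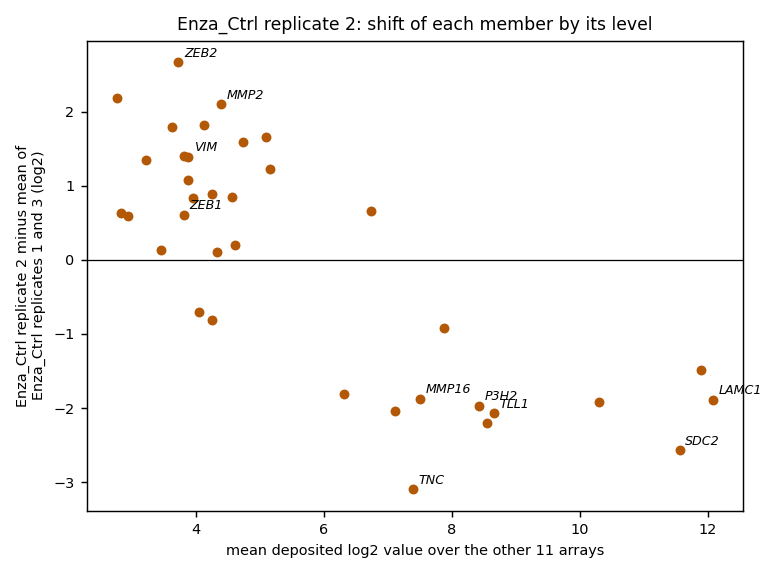
Level of each of the 36 members on Enza_Ctrl replicate 2 minus the mean of Enza_Ctrl replicates 1 and 3 (log2), against the member's mean over the other 11 arrays (deposited log2 value). Members with a low level were mostly raised on this array and members with a high level mostly lowered, TNC by the widest margin (-3.10).

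The labels call the lines epithelial. CDH1, which encodes E-cadherin, lay between 13.28 and 13.89 on all 12 arrays, and EPCAM, an epithelial adhesion protein, between 13.35 and 14.24, both above each array's background probes. The mean of 10 luminal genes lay between 11.92 and 12.98 on the 11 arrays, but KLK2, an androgen-induced kallikrein, was at 3.93 to 5.32 on the DMSO arrays, near the background probes. Of 11 fibroblast markers, 9 lay between 2.70 and 5.09 on the 11 arrays, while ACTA2, smooth muscle actin, lay between 7.41 and 10.59 and COL1A2, a member, between 7.42 and 8.63. The 6 endothelial markers lay between 2.75 and 5.68, the 2 basal markers between 2.54 and 4.80, and the 5 immune markers between 2.76 and 5.16 except for the macrophage marker CD68, at 6.26 to 7.70. The list means on the 11 arrays were 4.59 to 5.06 for fibroblast, 3.96 to 4.28 for endothelial, 4.18 to 4.79 for immune and 3.04 to 3.78 for basal markers, and on Enza_Ctrl replicate 2 they were 5.91, 5.11, 5.53 and 4.93. Single markers stood further apart on that array: CDH5 was at 9.25 there against 3.45 to 3.94 elsewhere, PDGFRA at 8.60 against 3.65 to 4.95, LUM at 6.35 against 3.16 to 4.18, and THY1 at 6.09 against 2.92 to 3.99. The part of other cells or of the array itself in these values was not tested.

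The lines differed in a few matrix genes, by large factors, and in both treatments. MMP16 was higher in LNCaPabl-Enza by 5.61 with DMSO and 5.46 with dexamethasone (11 arrays), which is 48.8-fold and 43.9-fold on the deposited scale. These folds may understate the difference, since MMP16 was at 4.43 to 6.04 on the Abi arrays, where background probes averaged 4.50 to 4.56. TLL1 and SDC2 were lower in LNCaPabl-Enza, by 7.22-fold and 20.1-fold with DMSO and by 8.86-fold and 18.5-fold with dexamethasone. P3H2 and TNC were called lower in LNCaPabl-Enza with dexamethasone, by 8.28-fold and 2.36-fold, and these calls depended on single arrays. With DMSO they were lower by 10.5-fold and 2.4-fold, differences that were not called (11 arrays). None of VIM, CDH2, the 6 transcription factors or the collagens was called between the lines.

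With DMSO, limma called 3 of 36 members with 12 arrays, 1 higher and 2 lower in LNCaPabl-Enza, where it called 0.266% of all genes. The same 3 were called with 11 arrays, where the share of all genes was 1.29%. With dexamethasone it called 2 members with 12 arrays, 1 higher and 1 lower, against 0.277% of all genes, and 5 members with 11 arrays, 1 higher and 4 lower, against 2.28% of all genes. A call is an adjusted p under 0.05 with Benjamini-Hochberg adjustment over all 17687 genes. In these bulk samples fewer cells that express a gene and less RNA per cell cannot be told apart.

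**Figure D2:**
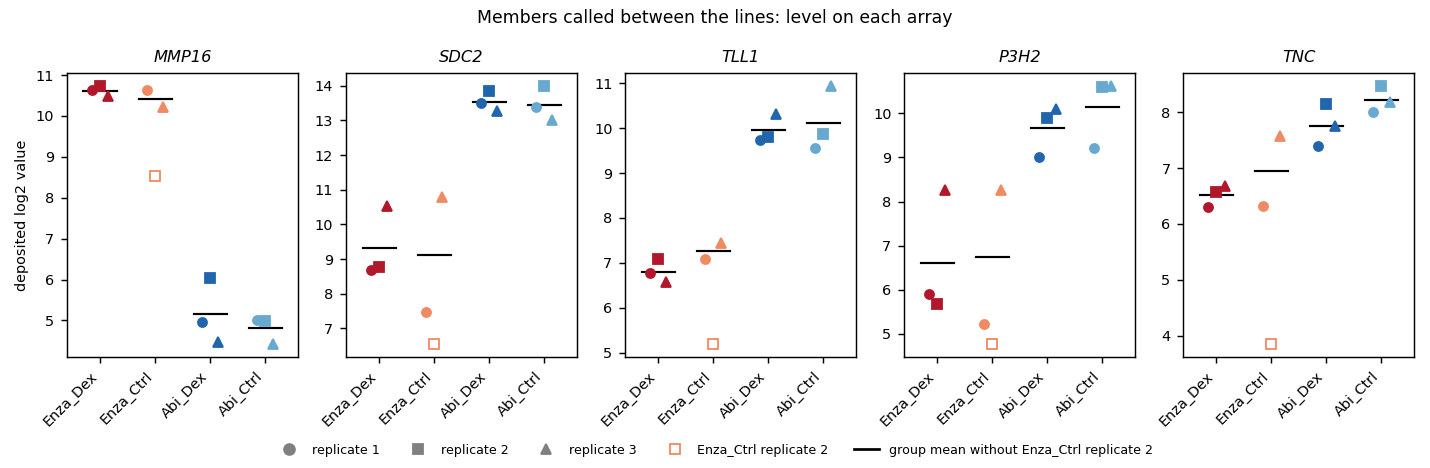
Deposited log2 value of the 5 members called between the lines, on each of the 12 arrays, by group; each panel has its own axis, marker shapes give the replicate number, bars the group mean without Enza_Ctrl replicate 2 and the open square that array. All Enza arrays lie above all Abi arrays for MMP16, and below them for SDC2, TLL1 and P3H2, while for TNC Enza_Ctrl replicate 3 lies within the range of Abi_Dex.

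MMP16 encodes a matrix metalloproteinase anchored in the cell membrane, which activates the secreted enzyme MMP2. Its level was 10.63, 10.73 and 10.48 in Enza_Dex, 10.62, 8.54 and 10.21 in Enza_Ctrl, 4.96, 6.04 and 4.46 in Abi_Dex, and 5.00, 4.99 and 4.43 in Abi_Ctrl. Every Enza array, the one that stood apart included, lay above every Abi array. With DMSO the difference was 4.98 ± 0.52 (SE, adjusted p = 0.00213, limma, 12 arrays) or 5.61 ± 0.35 (adjusted p = 1.46e-06, 11 arrays). With dexamethasone it was 5.46 ± 0.52 (adjusted p = 0.00124) or 5.46 ± 0.31 (adjusted p = 4.47e-07). No other gene of the 17687 had a more positive line difference, in either treatment and with either set of arrays. The call was lost only in a fit of Enza_Ctrl and Abi_Ctrl alone with the array that stood apart (adjusted p = 0.204), out of 37 settings in each treatment.

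The other metalloproteinases and the inhibitors were not called. MMP2, a secreted gelatinase that cuts type IV collagen, was at 4.51, 4.43 and 4.97 in Enza_Dex, 4.79, 6.67 and 4.34 in Enza_Ctrl, 4.01, 4.48 and 3.97 in Abi_Dex, and 4.24, 4.14 and 4.46 in Abi_Ctrl. Its groups overlapped between the lines in both treatments, and the difference with dexamethasone was 0.49 ± 0.21 (adjusted p = 0.381, 11 arrays). MMP14, the membrane-bound enzyme best known as an activator of MMP2, was at 3.46, 3.27 and 3.04 in Enza_Dex, 3.42, 4.63 and 3.16 in Enza_Ctrl, 3.20, 3.05 and 3.28 in Abi_Dex, and 2.80, 3.79 and 3.04 in Abi_Ctrl. Its line difference was 0.08 ± 0.23 with dexamethasone and 0.08 ± 0.26 with DMSO (11 arrays), each within its SE. TIMP1, a secreted inhibitor of metalloproteinases, was at 3.10, 2.92 and 2.64 in Enza_Dex, 2.84, 3.64 and 3.18 in Enza_Ctrl, 2.69, 2.99 and 2.82 in Abi_Dex, and 2.56, 2.75 and 2.59 in Abi_Ctrl. The DMSO groups did not overlap, by a difference of 0.38 ± 0.21 that was not called (adjusted p = 0.540, 11 arrays), while the dexamethasone groups overlapped. MMP9, the other gelatinase, and TIMP3, an inhibitor bound to the matrix, had line differences between -0.24 and 0.38 with 11 arrays.

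SDC2 encodes syndecan-2, a transmembrane heparan sulfate proteoglycan that binds matrix proteins and growth factors. Its level was 8.68, 8.77 and 10.54 in Enza_Dex, 7.48, 6.56 and 10.78 in Enza_Ctrl, 13.49, 13.85 and 13.27 in Abi_Dex, and 13.37, 13.99 and 13.00 in Abi_Ctrl. The lines did not overlap, and replicate 3 of both Enza groups lay between the other Enza arrays and the Abi arrays. The difference with DMSO was -5.18 ± 0.89 (adjusted p = 0.0423, limma, 12 arrays) or -4.33 ± 0.70 (adjusted p = 0.00504, 11 arrays). With dexamethasone it was -4.21 ± 0.89 (adjusted p = 0.112, 12 arrays) or -4.21 ± 0.63 (adjusted p = 0.00168, 11 arrays). Without Enza_Ctrl replicate 2 and both replicates 3 of the Enza groups, it was -5.98 with DMSO and -4.81 with dexamethasone (adjusted p = 9.47e-06 and 3.76e-06, limma, 9 arrays), a setting chosen after these values were seen. Among the fits that left out 1 more of the 11 arrays, that without Enza_Ctrl replicate 1 ended the DMSO call, leaving -2.68 with an adjusted p of 0.0866. Trended and robust eBayes on 11 arrays ended both calls (adjusted p = 0.105 with DMSO and 0.055 with dexamethasone). With 12 arrays, the DMSO call was also lost with renewed quantile normalization (adjusted p = 0.0515) and in a fit of the compared groups alone (adjusted p = 0.643).

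The other 3 proteoglycans were not called between the lines. SDC4, a widely expressed syndecan of focal adhesions, did not overlap between the lines in either treatment, with differences of 0.29 ± 0.17 with dexamethasone and 0.30 ± 0.19 with DMSO (11 arrays). SDC1, the main syndecan of epithelial cells, was at 9.82, 10.28 and 10.12 in Enza_Dex, 9.96, 8.06 and 10.00 in Enza_Ctrl, 10.43, 10.97 and 10.92 in Abi_Dex, and 10.45, 9.83 and 10.46 in Abi_Ctrl. Its groups were apart with dexamethasone (-0.70 ± 0.22, adjusted p = 0.143) and overlapped with DMSO (-0.27 ± 0.24, 11 arrays). GPC1, a proteoglycan held by a lipid anchor, differed by -0.19 ± 0.19 with dexamethasone and 0.03 ± 0.21 with DMSO.

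Among the enzymes that process matrix precursors, TLL1 was lower in LNCaPabl-Enza. TLL1 encodes tolloid-like 1, a secreted protease of the BMP1 family that trims procollagens. Its level was 6.77, 7.08 and 6.56 in Enza_Dex, 7.09, 5.20 and 7.45 in Enza_Ctrl, 9.73, 9.81 and 10.32 in Abi_Dex, and 9.56, 9.87 and 10.93 in Abi_Ctrl. The lines were apart by over 2 in each treatment. The difference was -3.54 ± 0.53 with DMSO (adjusted p = 0.0258, limma, 12 arrays) or -2.85 ± 0.33 (adjusted p = 0.000301, 11 arrays). With dexamethasone it was -3.15 ± 0.53 (adjusted p = 0.0426, 12 arrays) or -3.15 ± 0.30 (adjusted p = 2.51e-05, 11 arrays). Without the array that stood apart, TLL1 was called in both treatments when each of the other 11 arrays was also left out. When each of the 12 arrays was left out in turn, TLL1 was called in 3 of 12 fits with DMSO and 4 of 12 with dexamethasone. SDC2 was called in 2 of 12 with each. These counts include the fit without the array that stood apart, where both genes were called in both treatments.

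P3H2 encodes prolyl 3-hydroxylase 2, which modifies collagen chains, those of type IV above all. Its level was 5.90, 5.68 and 8.27 in Enza_Dex, 5.23, 4.78 and 8.26 in Enza_Ctrl, 9.01, 9.90 and 10.09 in Abi_Dex, and 9.20, 10.60 and 10.62 in Abi_Ctrl. The lines did not overlap, and replicate 3 of both Enza groups again lay nearest to the Abi arrays. The difference with DMSO was -4.05 ± 0.90 (adjusted p = 0.126, limma, 12 arrays) or -3.39 ± 0.79 (adjusted p = 0.0517, 11 arrays). With dexamethasone it was -3.05 ± 0.90 (adjusted p = 0.442, 12 arrays) or -3.05 ± 0.71 (adjusted p = 0.0348, 11 arrays). That last call was lost in 6 of the 11 fits that left out 1 more array, namely Abi_Ctrl 2, each Abi_Dex array, Enza_Dex 1 or Enza_Dex 2, with adjusted p-values from 0.0574 to 0.179, and with trended and robust eBayes on 11 arrays (adjusted p = 0.231). With DMSO the 11-array difference was -1.88 without Enza_Ctrl replicate 1 (adjusted p = 0.566, limma) and -4.91 without Enza_Ctrl replicate 3, where it was called (adjusted p = 0.00846). On the 9 arrays described for SDC2 it was -4.91 with DMSO and -3.87 with dexamethasone (adjusted p = 0.000407 and 0.000232, limma). PLOD2, LOX and BMP1, which hydroxylate, cross-link and trim collagen, had line differences between -0.25 and 0.24 with 11 arrays.

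TNC encodes tenascin-C, a matrix glycoprotein of developing and wounded tissue and of tumour stroma. Its level was 6.31, 6.57 and 6.69 in Enza_Dex, 6.33, 3.86 and 7.58 in Enza_Ctrl, 7.39, 8.14 and 7.74 in Abi_Dex, and 8.003, 8.46 and 8.19 in Abi_Ctrl. The lines did not overlap within either treatment. The difference with dexamethasone was -1.24 ± 0.69 (adjusted p = 1.00, limma, 12 arrays) or -1.24 ± 0.28 (adjusted p = 0.0302, 11 arrays). With DMSO it was -2.30 ± 0.69 (adjusted p = 0.317, 12 arrays) or -1.26 ± 0.32 (adjusted p = 0.0745, 11 arrays). The call with dexamethasone was lost in 5 of the 11 fits that left out 1 more array, namely Abi_Dex 2, Abi_Dex 3 or any Enza_Dex array, with adjusted p-values from 0.0569 to 0.159. With DMSO the 11-array difference was -0.64 without Enza_Ctrl replicate 1 (adjusted p = 0.651, limma) and -1.89 without Enza_Ctrl replicate 3, where it was called (adjusted p = 0.00846).

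Promoter windows are shown for P3H2, TLL1 and TNC, for which RefSeq (GRCh38.p14) gives a window. Each was called lower in LNCaPabl-Enza than in LNCaPabl-Abi in the dexamethasone-treated groups, without the array that stood apart. SDC2 was called lower in the same fit. With all arrays, only TLL1 of the genes printed was called in that comparison. None of these genes was called for dexamethasone against DMSO in either line. Every window has 300 bases on the gene's strand, and the capital letter at a single position is the annotated start. P3H2 has a second start, whose window is not shown and holds none of the motifs searched for. The window printed was chosen because it holds a motif, in capitals. MMP16 and SDC2 are named only.
P3H2, chr3:190120848-190121147, minus strand: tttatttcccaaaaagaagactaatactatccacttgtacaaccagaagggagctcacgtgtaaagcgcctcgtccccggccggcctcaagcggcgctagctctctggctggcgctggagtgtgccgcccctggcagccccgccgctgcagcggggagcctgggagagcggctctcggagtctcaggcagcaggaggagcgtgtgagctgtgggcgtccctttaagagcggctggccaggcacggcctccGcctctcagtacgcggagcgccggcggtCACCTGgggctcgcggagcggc
TLL1, chr4:165872987-165873286, plus strand: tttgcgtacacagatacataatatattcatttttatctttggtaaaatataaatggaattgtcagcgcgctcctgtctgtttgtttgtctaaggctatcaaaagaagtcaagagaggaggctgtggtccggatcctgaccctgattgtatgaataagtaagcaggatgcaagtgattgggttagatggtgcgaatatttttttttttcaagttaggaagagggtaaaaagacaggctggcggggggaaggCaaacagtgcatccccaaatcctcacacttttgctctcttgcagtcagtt
TNC, chr9:115118108-115118407, minus strand: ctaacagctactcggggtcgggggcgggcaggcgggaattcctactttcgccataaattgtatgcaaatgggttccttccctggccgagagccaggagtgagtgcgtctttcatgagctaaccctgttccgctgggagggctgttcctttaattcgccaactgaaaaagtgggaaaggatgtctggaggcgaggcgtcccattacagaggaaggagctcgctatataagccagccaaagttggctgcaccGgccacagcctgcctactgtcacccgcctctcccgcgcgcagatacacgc

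The windows were searched on both strands for 3 motifs. CAGGTG is the E-box bound by ZEB and SNAI factors, GNACA followed after 3 bases by TGTNC is a strict form of the palindrome shared by the glucocorticoid and androgen receptors, and TGANTCA is the AP-1 site. The printed P3H2 window, 1 of 2 for this gene, holds CAGGTG on the opposite strand (CACCTG as printed), from base 29, counting the start as base 1. The other printed windows hold none of the 3. CAGGTG was found in 6 of 34 member windows, those of 4 of 23 genes, and in 20.6% of all 34796 windows. The receptor palindrome was in 0 member windows and 0.391% of all, and the AP-1 site in 1 member window and 7.73% of all.

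The remaining glycoproteins showed no call. FN1 encodes fibronectin, which links integrins to collagen. Its level was 8.39, 8.35 and 8.33 in Enza_Dex, 8.32, 6.02 and 8.11 in Enza_Ctrl, 9.38, 10.57 and 6.86 in Abi_Dex, and 9.11, 9.51 and 7.12 in Abi_Ctrl. The Enza_Dex arrays were nearly equal, while replicate 3 of both Abi groups lay below all Enza_Dex arrays and the other Abi arrays above them, so the lines overlapped. The difference was -0.58 ± 0.70 with dexamethasone and -0.36 ± 0.79 with DMSO (11 arrays). SPARC, a collagen-binding protein, and THBS1, thrombospondin-1, had line differences between -0.34 and -0.02.

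Of the collagens, COL6A1 had the widest line difference. COL6A1 encodes a chain of type VI collagen, which forms beaded filaments, and averaged 6.50 ± 0.43 in Enza_Dex and 7.56 ± 0.74 in Abi_Dex (SD, n = 3 each), and 6.55 ± 0.32 in Enza_Ctrl and 7.66 ± 0.27 in Abi_Ctrl (SD, n = 2 and 3). Its differences of -1.06 ± 0.32 and -1.11 ± 0.35 were not called (adjusted p = 0.122 and 0.187, limma, 11 arrays), and the dexamethasone groups overlapped through Abi_Dex replicate 3. Without that array too, in a setting singled out after its value was seen, the difference with dexamethasone was -1.49 and was called (adjusted p = 0.00736, limma). COL1A1, COL1A2 and COL5A2, chains of the fibrillar collagens, differed by -0.46 to 0.05.

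In the basement membrane group, LAMC1, the laminin γ1 chain of most laminins, averaged 11.81 ± 0.10 in Enza_Dex and 12.58 ± 0.35 in Abi_Dex (SD, n = 3 each). The groups did not overlap, and the difference of -0.77 ± 0.19 was not called (adjusted p = 0.0506, limma, 11 arrays). On 11 arrays it was called with renewed quantile normalization (adjusted p = 0.0447), trended and robust eBayes (0.0226) and the filter on dim genes (0.0426), and on 12 with array weights (0.012). It was not called with all 12 arrays at equal weight (adjusted p = 1.00) or in a fit of the compared groups alone (0.0683). When 1 more of the 11 arrays was left out, it was called without Abi_Ctrl 2 (adjusted p = 0.0471, limma) or Abi_Dex 3 (0.0228). It was not called when any other Abi array or any Enza_Dex array was left out, with adjusted p-values up to 0.255. With DMSO the groups did not overlap either, with a difference of -0.35 ± 0.21 (adjusted p = 0.595). COL4A1, a chain of the network collagen of basement membranes, was at 2.95, 2.84 and 2.94 in Enza_Dex, 2.89, 3.28 and 2.49 in Enza_Ctrl, 3.27, 2.93 and 3.05 in Abi_Dex, and 2.90, 3.05 and 2.98 in Abi_Ctrl. Its largest line difference was -0.29 ± 0.19, with DMSO, and was not called. COL4A2, its partner chain, and LAMB1, the laminin β1 chain, differed by -0.26 to 0.09.

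The markers of the mesenchymal state itself were not called in either line comparison. VIM was at 3.84, 3.86 and 4.15 in Enza_Dex, 4.66, 5.61 and 3.77 in Enza_Ctrl, 3.71, 3.78 and 3.90 in Abi_Dex, and 3.71, 3.72 and 3.56 in Abi_Ctrl. The highest values were those of Enza_Ctrl replicates 2 and 1. The DMSO groups did not overlap, and the difference was 1.02 ± 0.37 with 12 arrays (adjusted p = 0.424, limma) and 0.55 ± 0.24 with 11 (adjusted p = 0.385). CDH2 was at 4.21, 3.87 and 3.96 in Enza_Dex, 3.68, 5.29 and 4.10 in Enza_Ctrl, 4.25, 3.49 and 3.50 in Abi_Dex, and 3.81, 3.73 and 3.31 in Abi_Ctrl. Without the array that stood apart, all CDH2 values lay between 3.31 and 4.25 and the groups overlapped. CDH11, a cadherin of osteoblasts and mesenchymal cells, differed by 0.60 ± 0.19 with DMSO (adjusted p = 0.167) and by -0.32 ± 0.17 with dexamethasone (adjusted p = 0.510, 11 arrays), in opposite directions and with no overlap in either.

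The 6 transcription factors lay between 2.99 and 5.57 on the 11 arrays. ZEB1 was at 2.99, 3.62 and 3.78 in Enza_Dex, 3.94, 4.81 and 4.46 in Enza_Ctrl, 3.45, 4.47 and 3.93 in Abi_Dex, and 3.80, 4.21 and 3.33 in Abi_Ctrl. SNAI2 was at 4.46, 3.86 and 4.37 in Enza_Dex, 4.32, 5.38 and 4.67 in Enza_Ctrl, 4.05, 4.25 and 4.31 in Abi_Dex, and 3.87, 4.39 and 4.31 in Abi_Ctrl. TWIST1 was at 3.91, 3.69 and 4.03 in Enza_Dex, 4.44, 4.74 and 3.37 in Enza_Ctrl, 3.86, 3.87 and 4.11 in Abi_Dex, and 4.05, 3.72 and 4.46 in Abi_Ctrl. For all 3 the highest array was Enza_Ctrl replicate 2, and the lines overlapped on the other 11. The line differences of the 6 factors ran from -0.49 ± 0.29 for ZEB1 with dexamethasone to 0.42 ± 0.33 for ZEB1 with DMSO (11 arrays). VIM, CDH2, CDH11, ZEB1, ZEB2 and TWIST1 were among the 13 members among the dimmest genes, which a filter set at the 25th percentile of mean level left out.

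**Figure D3:**
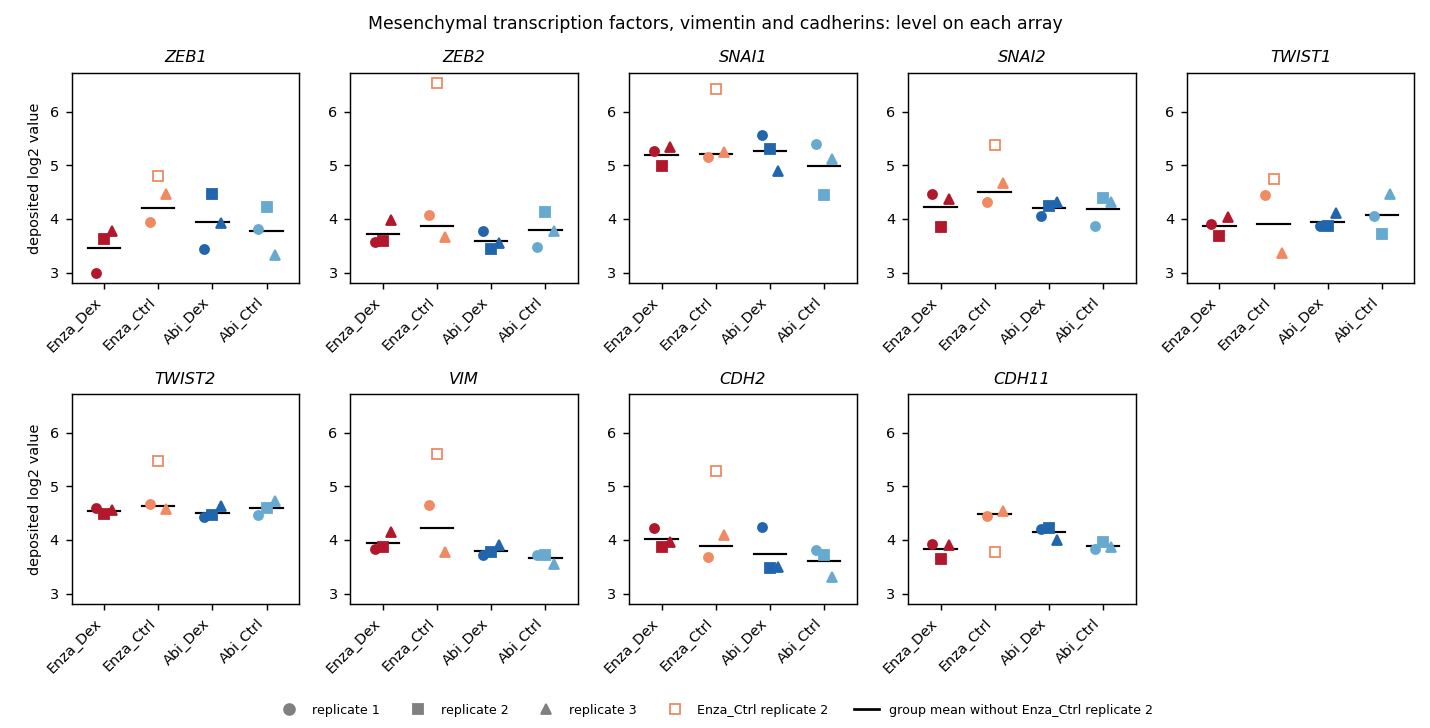
Deposited log2 value of the 6 transcription factors, VIM, CDH2 and CDH11 on each of the 12 arrays, by group, with markers as for the called members. Enza_Ctrl replicate 2 (open square) is the highest array for all of these but CDH11, and the groups overlap for most of them on the other 11 arrays.

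Across all 36 members, the line difference with 11 arrays had a median of 0.002 with DMSO (all genes -0.002) and -0.079 with dexamethasone (all genes -0.008). With DMSO the Enza arrays did not overlap the Abi arrays for 6 members that were higher and 7 that were lower, where 24.0% of all genes showed no overlap. With dexamethasone the counts were 3 higher and 7 lower, against 20.1% of all genes. The members that lay past 1 in both treatments were 6, namely MMP16, SDC2, TLL1, P3H2, TNC and COL6A1, and each had the same direction in both. The DMSO and dexamethasone comparisons share no array, and over the 36 members their differences correlated with r = 0.98 (Pearson) and rho = 0.63 (Spearman), with the same sign in 27. Over all genes r was 0.66 and rho 0.40. These are descriptions over genes measured on the same arrays.

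**Figure D4:**
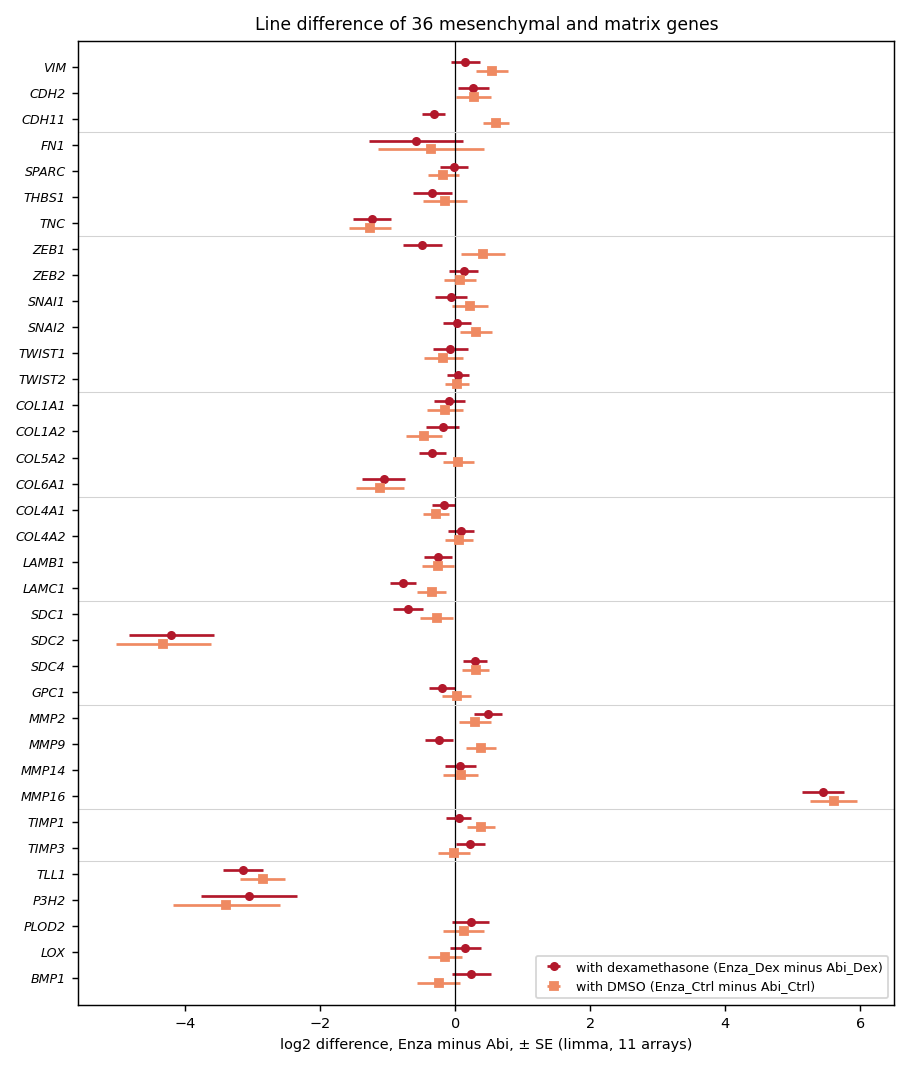
Line difference of each of the 36 members (log2, Enza minus Abi, ± SE, limma, 11 arrays), with dexamethasone (circles) and with DMSO (squares); grey lines part the groups of members. MMP16 lies near 5.5 on the right, SDC2, P3H2, TLL1, TNC and COL6A1 lie below -1 in both treatments, and the other 30 members lie within 1 of 0.

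Dexamethasone was not followed by a call for any member, in either line. In LNCaPabl-Enza, limma called 0 of 36 members with 12 and with 11 arrays, where it called 0.0% of all genes with each set. At an unadjusted p under 0.05 there were 1 member of 36 and 700 genes with 12 arrays, and 2 members and 530 genes with 11. In LNCaPabl-Abi it called 0 members, against 0.0283% of all genes with 12 arrays and 0.141% with 11. At an unadjusted p under 0.05 there were 0 members and 241 genes with 12 arrays, and 2 members and 1254 genes with 11. The dexamethasone and line comparisons share arrays, so their values are not independent.

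In LNCaPabl-Enza the members' median difference was -0.289 with 12 arrays (all genes 0.057) and -0.020 with 11 (all genes 0.005). With all arrays 21 members were negative, and with 11 arrays 19. The differences with 11 arrays ran from -0.74 ± 0.33 for ZEB1 to 0.40 ± 0.31 for PLOD2. ZEB1 averaged 3.46 ± 0.42 in Enza_Dex (SD, n = 3) and 4.20 ± 0.37 in Enza_Ctrl (SD, n = 2), with an adjusted p of 1.00, and -0.94 ± 0.36 with 12 arrays (adjusted p = 0.523, limma). CDH11 averaged 3.82 ± 0.16 in Enza_Dex (SD, n = 3) and 4.49 ± 0.07 in Enza_Ctrl (SD, n = 2), a difference of -0.67 ± 0.19 with an adjusted p of 1.00 (limma, 11 arrays). With 11 arrays the groups did not overlap for 1 member that was higher, FN1, and for 3 that were lower, CDH11, ZEB1 and TLL1, against 15.9% of all genes. ZEB1 and CDH11 are singled out here after their values were seen.

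In LNCaPabl-Abi the differences ran from -0.47 ± 0.71 for P3H2 to 0.53 ± 0.22 for SDC1 (11 arrays), with a median of 0.060 (all genes 0.002). LAMC1 averaged 12.58 ± 0.35 in Abi_Dex and 12.10 ± 0.09 in Abi_Ctrl (SD, n = 3 each), a difference of 0.48 ± 0.19 with an adjusted p of 0.652 (limma, 11 arrays). SDC1 averaged 10.77 ± 0.30 in Abi_Dex and 10.25 ± 0.36 in Abi_Ctrl (SD, n = 3 each), with an adjusted p of 0.678. The groups did not overlap for LAMC1, CDH11 and PLOD2, all higher with dexamethasone, and for 0 members that were lower, against 12.3% of all genes. On the same arrays TMPRSS2, an androgen-induced protease of luminal cells, was higher by 2.19 ± 0.20 (adjusted p = 6.55e-05, limma, 11 arrays). A p that misses the threshold does not show that a member's level was the same with and without dexamethasone.

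A change of the called line differences with dexamethasone was not detected. The response of LNCaPabl-Enza minus that of LNCaPabl-Abi was -0.15 ± 0.47 for MMP16, 0.12 ± 0.94 for SDC2, -0.29 ± 0.445 for TLL1, 0.34 ± 1.06 for P3H2 and 0.03 ± 0.42 for TNC (log2, SE, limma, 11 arrays). Limma called 0 of 36 members in this comparison with 12 and with 11 arrays, where it called 0.0% of all genes with each. At an unadjusted p under 0.05 there were 0 members and 266 genes with 12 arrays, and 1 member and 566 genes with 11. That member was CDH11, with -0.92 ± 0.25 (adjusted p = 0.999).

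**Figure D5:**
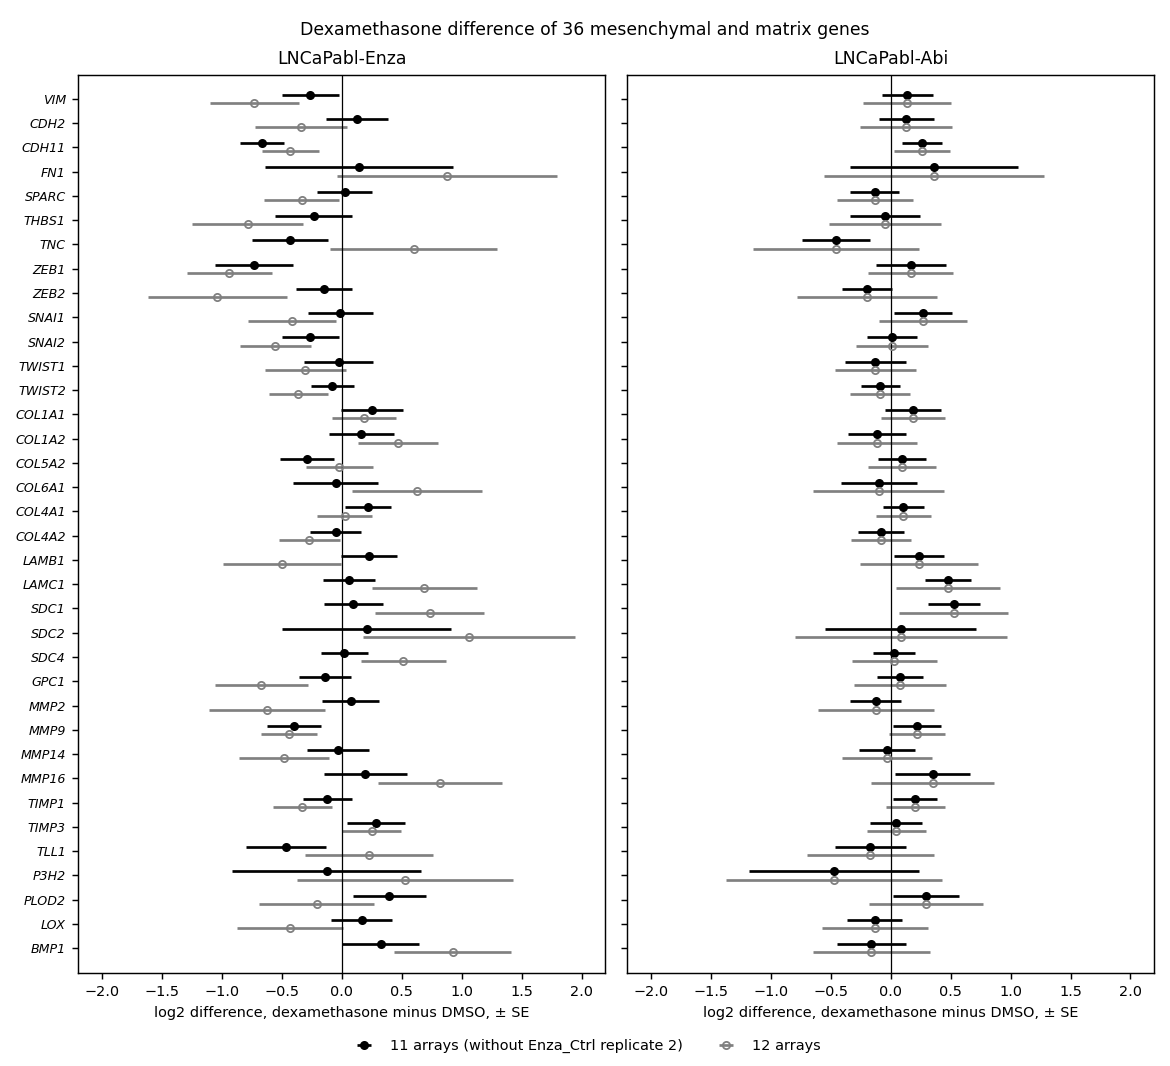
Dexamethasone difference of each of the 36 members (log2, dexamethasone minus DMSO, ± SE, limma) in LNCaPabl-Enza (left) and LNCaPabl-Abi (right), with 11 arrays (filled) and 12 arrays (open). In LNCaPabl-Enza the 12-array values are shifted by Enza_Ctrl replicate 2, while in LNCaPabl-Abi both sets give the same differences and the SE is narrower with 11.

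Other genes of the same pathways were read from lists of related genes. With 11 arrays, GPC6, a glypican, was lower in LNCaPabl-Enza, with differences of -2.56 ± 0.51 with DMSO and -2.70 ± 0.46 with dexamethasone (adjusted p = 0.0207 and 0.00437, limma), as 1 of 16 other proteoglycans. Of 18 other matrix enzymes and chaperones, 2 were called: SERPINH1, the collagen chaperone HSP47, with -1.47 ± 0.29 and -1.58 ± 0.26 (adjusted p = 0.0198 and 0.00372), and P4HA2, a subunit of collagen prolyl 4-hydroxylase, with dexamethasone (-0.99 ± 0.22, adjusted p = 0.0241). LTBP1, which stores latent TGF-β in the matrix, was 1 of 19 genes of TGF-β signalling and was lower too (-2.47 ± 0.49 and -2.62 ± 0.435, adjusted p = 0.0192 and 0.00386). All of these were called on 11 arrays, and none with 12. The shares of all genes called on 11 arrays were 1.29% with DMSO and 2.28% with dexamethasone.

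ITGA3, the α3 chain of a laminin-binding integrin, was called among 14 matrix receptors (-0.94 ± 0.19, adjusted p = 0.0168), and DSP, the desmosome protein desmoplakin, among 20 epithelial junction genes (-1.14 ± 0.25, adjusted p = 0.0241), both with dexamethasone (limma, 11 arrays). Of 16 other collagens, 8 other basement membrane genes and 18 other metalloproteinases, 0 were called between the lines with either set, and with 11 arrays the numbers at an unadjusted p under 0.05 were 1, 0 and 2 with DMSO and 1, 1 and 1 with dexamethasone. Over all 17687 genes, 1956 with DMSO and 2039 with dexamethasone had an unadjusted p under 0.05 (limma, 11 arrays). None of the genes in these 8 lists was called higher in LNCaPabl-Enza, and in the comparisons of dexamethasone with DMSO none was called at all. Such calls were few among all genes too. On 11 arrays 59 genes were called higher and 169 lower with DMSO, and 133 and 270 with dexamethasone. For dexamethasone against DMSO, 25 genes were called in LNCaPabl-Abi and 0 in LNCaPabl-Enza. The fibroblast, endothelial, immune and basal markers had 0 calls in every comparison, and with 11 arrays 1, 0, 0 and 0 of them had an unadjusted p under 0.05 with DMSO and 1, 0, 1 and 1 with dexamethasone between the lines.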

How the data were processed

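Total RNA was hybridised to 12 single-colour Affymetrix arrays after labelling with the WT PLUS kit, as the labels' protocols describe. Each array's deposited values are on a log2 scale, with 1 value for each transcript cluster, and run from 1.66 to 18.6. RMA alone rarely gives so wide a range, and folds therefore hold on that scale only. Expression Console, RMA and limma are named in the submitters' processing notes. For the genome build and the summarisation options, the sources used here give nothing.

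Symbols came from the platform annotation. It gave 1 symbol to 17709 rows, and the Entrez identifier of each of them was found in the RefSeq table. The brightest row was kept for the 20 genes with several, none of them a member. Group means were fitted with lmFit and eBayes of limma 3.58.1 (R 4.3.3; 4 group means, no block, no filter), on 12 arrays and again on 11 without Enza_Ctrl replicate 2. The 5 comparisons were the line difference in each treatment, the dexamethasone difference in each line and the difference between those responses. Adjusted p-values are Benjamini-Hochberg over 17687 genes. Residual SDs had a median of 0.43 with 12 arrays and 0.258 with 11. The fit was also run on simulated arrays with independent noise. None of them was made to stand apart or to share a replicate effect, so that run bears on neither.

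The members, their roles and the lists of related genes were chosen with earlier results of these data known, and the lists support no claim of their own. Levels in every array are given for members called in any comparison and for VIM, CDH2, FN1, ZEB1, SNAI2, TWIST1, MMP2, MMP14, TIMP1 and COL4A1, whatever they did; listed genes that are no member are named where called. SDC1 was given in every array after its values were seen. The labels do not say that replicates were separate cultures, so the spread that p-values measure may be technical, and the number of arrays limits the precision. Each line is 1 line, so line differences are between these 2 lines only.

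Alternatives were leaving out each array, the replicate number as a block, quantile normalization anew, a filter on genes under the 25th percentile of mean level, fits of the compared groups alone, array weights, trended and robust eBayes, and the mean of rows. Trended and robust eBayes and the filter on 11 arrays, the omission of a further array from the 11, and the 9-array set were chosen after seeing the data.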

Additional observations from a re-analysis of the deposited data

How the results depend on the processing

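No called difference of a member changed sign under any alternative. Leaving out 1 array, or 1 further array after Enza_Ctrl replicate 2, the members called numbered 1 to 5 in each line comparison and 0 in the other comparisons. The genes called numbered 11 to 242 between the lines with DMSO, 12 to 459 with dexamethasone, 0 to 29 for dexamethasone in LNCaPabl-Abi, and 0 to 1 both for dexamethasone in LNCaPabl-Enza and for the difference between the responses.

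Between the lines with DMSO (3 members and 47 genes called with 12 arrays), a fit of the compared groups alone called 0 members and 0 genes with limma (6 and 559 at an unadjusted p under 0.05), or 117 genes on 11 arrays. Renewed quantile normalization called 1 member, and 209 genes on 11 arrays. Array weights called 252 genes. On 11 arrays, trended and robust eBayes called 2 members (without SDC2) and 249 genes and the filter on dim genes 232. The 9-array set called 5 members and 194 genes.

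Between the lines with dexamethasone (2 members and 49 genes), a fit of the compared groups alone called 5 members and 502 genes with either set of arrays. Renewed quantile normalization called 1 member, or 6 members and 405 genes on 11 arrays. Array weights called 8 members and 767 genes. On 11 arrays, trended and robust eBayes called 4 members and 447 genes, and the filter 6 members and 421 genes. The 9-array set called 5 members and 351 genes.

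For dexamethasone in LNCaPabl-Abi (0 members and 5 genes), the genes called were 22 in a fit of the compared groups alone with either set, 37 with array weights, 27 with renewed quantile normalization and 11 arrays, 30 with trended and robust eBayes and 23 with the filter on 11 arrays, and 27 with 9 arrays, with 0 members in each. With 9 arrays 1 gene was called for dexamethasone in LNCaPabl-Enza and 1 in the difference between the responses, neither a member.

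The deviations of same-numbered arrays of different groups correlated at -0.039 to 0.303 (median 0.077), others at -0.196 to 0.098 (median -0.030). Several same-numbered pairs lay above all others, but not every pair did, and the labels name no shared batch. The numbers were therefore not taken to pair the arrays. The deviations were taken from group means that include Enza_Ctrl replicate 2, which shifts the deviations of all Enza_Ctrl arrays. The check therefore cannot decide whether the arrays are paired. With the replicate number as a block on 12 arrays, 4 members were called between the lines with DMSO, P3H2 now among them (adjusted p = 0.039), and 2 with dexamethasone. With the replicate block on 11 arrays these were 5 and 6 members, with P3H2 (adjusted p = 0.00178) and TNC (0.0323) added with DMSO and LAMC1 (0.0344) with dexamethasone, and the genes called were 303 with DMSO, 540 with dexamethasone, 39 for dexamethasone in LNCaPabl-Abi and 1 for the difference between the responses. The cause of these differences in count was not tested.

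The limit throughout is 3 arrays a group, 2 in Enza_Ctrl without its outlying array. Replicate 3 of the Enza groups is a further limit, since it moves SDC2 and P3H2, and TNC with DMSO.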
